A study of Mus musculus with 18 samples.

Results

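The 34 genes described here act in autophagy, the delivery of cell contents to the lysosome, and in the fusion, division and removal of mitochondria. They were chosen by mouse symbol for these roles, with earlier results of these data known. Each matched 1 gene identifier among the 47069 in the deposited tables. RNA had been sequenced from single mouse oocytes of the strain C57BL/6JAusb at the germinal vesicle (GV) stage, when the oocyte is immature and arrested, or at metaphase II (MII), when it is a mature egg. Young control mice were 4 weeks old, and aged control mice were 12 months old. Aged mice of 12 months in the treated group received nicotinamide mononucleotide (NMN), a precursor of NAD, at 2 g/L in their drinking water for 4 weeks, and both control groups drank water without it. Oocytes were lysed gently, the nucleus was spun down and the supernatant was used, so the values refer mainly to cytoplasmic RNA. There were 2 oocytes each from young and aged controls at the GV stage and 3 from NMN mice, and 3 from each of the same conditions at MII, 16 in all.

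Macroautophagy begins when the ULK1 kinase complex, built on the scaffold RB1CC1 with ATG13, is switched on and ATG9A supplies membrane. A lipid kinase complex of PIK3C3, BECN1 and ATG14 then marks the membrane, WIPI2 binds that mark, and a pair of ubiquitin-like conjugation systems attaches proteins of the ATG8 family (LC3 and GABARAP) to the growing autophagosome. Mitochondria are tagged for this route by PINK1 or carry receptors such as BNIP3, BNIP3L and FUNDC1 that bind ATG8 proteins directly. MFN1, MFN2 and OPA1 fuse mitochondria, and DNM1L, recruited by FIS1, MFF and MIEF1, divides them. The egg passes its store of mitochondria on to the embryo, and in mouse embryos autophagy starts soon after fertilization.

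Libraries held 2756181 to 5586894 counts, so that 3 counts were worth 0.537 to 1.09 CPM, the usual scale of counts relative to the library total. The animals behind the oocytes are not named, and every oocyte gave a separate library. A condition was therefore treated as a single sample without any test, and SD describes the spread between oocytes. The files of 2 young GV oocytes were identical and stand for 1 oocyte, and 1 aged GV control library of 5009 counts was left out. CPM values below were scaled between libraries unless called unscaled, and batch here means the following. Titles that number oocytes 2-1 or 2-2 name a batch 2, and most other titles name none and are called batch 1. Called batch 1 as well are the young GV oocyte whose identical files carry both kinds of title, and MII NMN oocyte 2, whose title says batch 2. The 10 oocyte markers checked, Gdf9 and Zp3 among them, were detected in all 13 oocytes outside the MII NMN group, where 7 to 10 were detected. Mitochondrially encoded genes took 43.0, 33.2 and 6.18% of the counts in the 3 MII NMN oocytes, against 2.76 to 24.4% in the other oocytes. Of the 12161 genes kept by a filter on low counts, 48.2, 42.4 and 60.5% were detected in the MII NMN oocytes, against 66.3 to 93.8% in the others. Cumulus and granulosa markers, 14 genes, reached 0 to 297 CPM in sum, with Amh and Foxl2 at 0 throughout. Immune markers summed to 0 to 237 CPM, nearly all of it from C1qb, with Ptprc, C1qa and Tyrobp at 0 in every oocyte. A drop in RNA content and a drop in a transcript's share of it cannot be told apart in such libraries.

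Transcripts for the ATG8-conjugating protein Atg5, the mitophagy receptor Bnip3l, the fission receptor Mff and the LC3 gene Map1lc3b led the 34 genes. In TPM, a scale that corrects for transcript length and allows genes to be compared, their means over the 16 oocytes were 246, 227, 176 and 157. Atg5 (chromosome 10, 44268358 to 44364291, plus strand, GRCm38) lay at the 94.7th percentile of the kept genes by mean TPM. Bnip3l (chromosome 14, 66985239 to 67008877, minus strand) lay at the 94.4th, Mff (chromosome 1, 82724890 to 82752394, plus strand) at the 93.1st and Map1lc3b (chromosome 8, 121590361 to 121598760, plus strand) at the 92.5th. The mean of Mff rested on MII young control oocyte 2-1, where it reached 1341 TPM, and its median over the oocytes was 87.1 TPM. Fis1, Atg12, Dnm1l, Becn1, Rb1cc1 and Oma1 followed at 46.2, 36.8, 36.7, 32.1, 30.9 and 28.7 TPM. The ranges of these genes over the oocytes overlapped, so their order is loose.

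Several well-known genes of these pathways had hardly any transcript here. The mitophagy kinase gene Pink1 averaged 0.228 TPM and was detected in 6 of 16 oocytes, and the ATG8 gene Gabarapl1 averaged 0.130 TPM and was detected in 2. These are the 2 genes that did not pass the filter on low counts, and the other 32 passed. Atg13, Atg9a, Ulk2, Mfn2 and Gabarap averaged 0.253, 0.303, 0.353, 0.506 and 1.24 TPM and were detected in 7, 6, 7, 7 and 5 oocytes. In all, 10 of the 34 genes were detected in every oocyte, 7 in fewer than 8 oocytes, and 12 had a mean under 5 TPM. Levels also differed between genes of 1 role. Of the mitofusins, Mfn1 averaged 7.12 TPM and Mfn2 0.506 TPM, and of the ULK1 complex, Rb1cc1 averaged 30.9 TPM while Ulk1 averaged 2.55 TPM and Atg13 0.253 TPM.

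**Figure D1:**
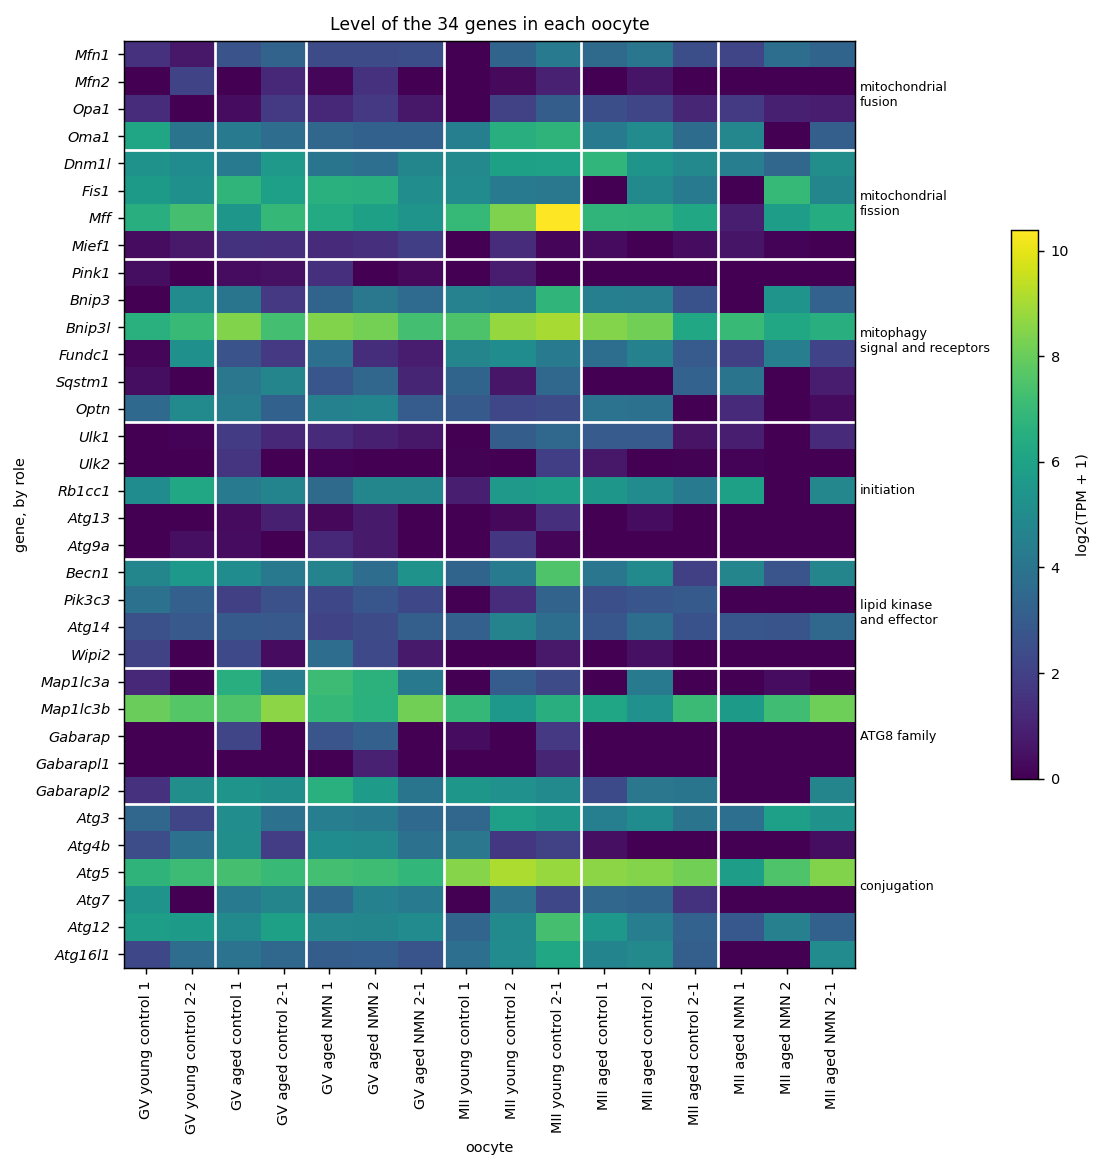
Level of each gene in each of the 16 oocytes as log2(TPM + 1), with genes in rows by role and oocytes in columns by group. Atg5, Bnip3l, Map1lc3b and Mff are bright in nearly every column, while Gabarapl1, Pink1, Atg13, Atg9a and Ulk2 are dark in most of them.

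The genes detected per oocyte numbered 26 and 24 in GV young control, 32 and 30 in GV aged control, and 33, 32 and 28 in GV aged NMN oocytes. They numbered 21, 30 and 33 in MII young control, 24, 26 and 24 in MII aged control, and 19, 16 and 22 in MII aged NMN oocytes. In the same order, the GV numbers were 76.5 and 70.6, 94.1 and 88.2, and 97.1, 94.1 and 82.4% of the 34. Of all kept genes, 75.9 and 68.0, 93.8 and 86.0, and 91.8, 93.7 and 75.4% were detected there. The MII numbers were 61.8, 88.2 and 97.1, 70.6, 76.5 and 70.6, and 55.9, 47.1 and 64.7% of the 34. The shares of all kept genes at MII were 66.3, 88.4 and 90.8, 75.6, 80.8 and 66.8, and 48.2, 42.4 and 60.5%. The lowest numbers were those of MII NMN oocytes 2 and 1, followed by MII young control oocyte 1, in which mitochondrially encoded genes took 24.4% of counts. The summed level of the 34 genes was 986 ± 92.1 TPM (SD, n = 2) in GV young control, 1231 ± 71.9 TPM (n = 2) in GV aged control and 1086 ± 193 TPM (n = 3) in GV aged NMN oocytes. In MII oocytes, 3 in each group, it was 2095 ± 1170 TPM in young controls, 1072 ± 292 TPM in aged controls and 743 ± 320 TPM with NMN. MII young control oocyte 2-1 held 3357 TPM, of which Mff was 1341 TPM. In scaled CPM the GV sums were 1733 ± 116 in young control, 1632 ± 2.54 in aged control and 1648 ± 200 in NMN oocytes. At MII they were 2550 ± 261, 1703 ± 65.1 and 1911 ± 631 CPM. The order of the groups thus differed between the scales.

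Some members share ground with other genes, which can limit what their counts show. The library kit is not stated to mark strand, and 10 of the 34 genes overlap a gene on the other strand. Among them Becn1 overlaps Cntd1, Sqstm1 overlaps Mrnip, Atg4b overlaps Thap4, Map1lc3b overlaps Zcchc14 and Atg9a overlaps Ankzf1. Overlap was taken from whole gene spans, so only reads from a stretch that both transcripts cover could be confused. How many reads came from such stretches was not examined. A further overlap on the same strand was found for 8 genes, mostly small RNA or predicted genes, such as Mir1929 with Atg5 and Scarna6 with Atg16l1.

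Promoter windows were matched in RefSeq (GRCm38.p6) for 27 of the 34 genes and run from 250 bases before to 50 after a start site. The sequence CACGTG, the core of the site read by TFEB and its relatives, which are regulators of autophagy and lysosomal genes, was found in a window of 5 of the 27 genes (18.5%) and in 7.15% of all 32851 windows. The 5 were Atg3, Atg5, Atg7, Atg14 and Bnip3, of which Atg3, Atg5 and Atg7 belong to the conjugation systems. The conjugation genes and Bnip3 are shown because their transcripts are among those followed below, and since genes can have several windows these shares are a description. The stretches below run 5′ to 3′ on the gene's strand, capitals mark CACGTG, and flanks are 20 bases or end just before the start site.
Atg5, chr10:44268305-44268338, plus strand: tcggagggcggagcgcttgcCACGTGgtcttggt
Atg3, chr16:45158715-45158783, plus strand: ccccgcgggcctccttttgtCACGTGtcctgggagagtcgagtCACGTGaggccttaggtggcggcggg
Atg7, chr6:114670944-114670989, plus strand: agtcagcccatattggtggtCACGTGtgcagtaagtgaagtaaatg
Bnip3, chr7:138909589-138909634, minus strand: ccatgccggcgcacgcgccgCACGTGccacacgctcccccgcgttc
The motif began 14 bases before the start in Atg5, 132 before it in Atg7, 108 before it in Bnip3, and 94 and 71 before it in Atg3, the only member with 2 copies. The copy 71 bases before the start of Atg3 is also a match to TCACGTGA, which 0.974% of all windows hold. In Atg14 the match spans the start itself. The Atg7 window lies inside the longer gene model of GENCODE, which starts upstream of it. The search covered 8 motifs on both strands, and CACGTG was chosen for display after the matches were seen. TGACGTCA, the cAMP response element, was in 1 member (Atg5) and in 1.79% of all windows, and TGACTCA, the AP-1 site, was in no member and in 5.202% of windows. CAGGTG was in 7 members and in 20.2% of windows, while CATGTG and TCATGTGA were in 1 member (Mff) and in 14.2 and 0.986% of windows. The ten-base palindrome of TFEB, which contains CACGTG and TCACGTGA, was in no member and in 0.326% of windows.

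Age was first compared in GV oocytes, aged against young controls. The LC3 gene Map1lc3a, the cargo receptor Sqstm1, the kinase gene Ulk1 and the fusion gene Mfn1 were higher in both aged oocytes than in both young ones. The lipid kinase Pik3c3, the initiation scaffold Rb1cc1 and the protease Oma1 were lower in both aged oocytes. In all 10 genes were at least 2-fold higher in group means, 29.4% of the 34 against 31.2% of the 12161 kept genes, and 5 were at least 2-fold lower, 14.7% against 12.2%. Both shares were near those of all genes. Past 2-fold without overlap between oocytes were 7 genes upward, 20.6% against 19.7% of all kept genes, and 3 downward, 8.82% against 5.69%. Without GV young control oocyte 2-2 the lower genes numbered 3, and without GV aged control oocyte 2-1 they numbered 9. The median log2 ratio of means, after 1 CPM was added to each, was 0.13 for the 34 genes and 0.29 for all kept genes.

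Map1lc3a (chromosome 2, 155276297 to 155278073, plus strand) encodes an LC3 protein that is attached to autophagosome membranes. The GV young control oocytes held 1.03 and 0 CPM of it, against 66.0 and 12.3 CPM in the aged controls and 119.7, 71.5 and 13.5 CPM in the aged NMN oocytes. The young group held 4 counts in all, 0.507 unscaled CPM with an exact 95% Poisson interval of 0.138 to 1.30, and this and the other intervals and floors given cover counting error only. The ratio of scaled means was 76.0-fold, and the log2 ratio was 4.73. It was 3.13 without GV aged control oocyte 1, 5.47 without oocyte 2-1 and 5.33 without GV young control oocyte 1. The high values were those of the 3 aged GV oocytes of batch 1. The same 3 oocytes held 237, 101 and 176 CPM of immune markers, of which C1qb alone was 227, 97.3 and 166 CPM. In the other 4 GV oocytes these markers summed to 8.88 to 21.9 CPM. The same 3 oocytes also had the most genes detected, 93.8, 91.8 and 93.7% of all kept genes, against 68.0 to 86.0% in the other 4. The part of either in the result was not tested. Within batch 2, with 1 oocyte a group, the aged oocyte was at 12.3 CPM and the young one at 0 CPM. Of all kept genes, 86.0% were detected in that aged oocyte and 68.0% in that young one.

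Sqstm1 encodes p62, which links ubiquitin-tagged cargo to LC3. It was at 1.03 and 0 CPM in young and at 13.0 and 19.9 CPM in aged GV oocytes, without overlap and 31.9-fold apart in scaled means (log2 ratio 3.53, and 4.13 without GV young control oocyte 1). Ulk1, the kinase that starts autophagy, was at 0 and 0.523 CPM in young and at 13.7 and 6.89 CPM in aged GV oocytes. Its log2 ratio was 3.16. The young group held 2 counts and the aged group 106, a ratio of unscaled CPM of 47.9 with an exact 95% counting interval of 12.9 to 401. Levels were thus low in both age groups for these genes, and the young oocytes lay near the floor. Of all kept genes, 75.9 and 68.0% were detected in the young and 93.8 and 86.0% in the aged GV oocytes. The part of this in the results was not tested.

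Mfn1, a mitofusin of the outer mitochondrial membrane, was at 11.1 and 3.40 CPM in young and at 24.1 and 25.1 CPM in aged GV oocytes (log2 ratio 1.63, and 2.54 without GV young control oocyte 1). Atg4b, the protease that primes and recycles ATG8 proteins, was at 5.41 and 19.9 CPM in young and at 92.7 and 11.3 CPM in aged oocytes, with overlap. Its log2 ratio of 1.96 was 1.35 without GV young control oocyte 1 and 3.05 without oocyte 2-2. It was 2.78 without GV aged control oocyte 2-1 and turned to -0.15 without GV aged control oocyte 1, one of the 3 oocytes with much C1qb. Within batch 2 it was -0.76. Atg3, the enzyme that passes ATG8 proteins to lipid, was at 25.3 and 8.10 CPM in young and at 63.8 and 27.3 CPM in aged oocytes. The log2 ratio of 1.40 was 0.68 without GV aged control oocyte 1, 0.82 without GV young control oocyte 2-2 and 2.35 without oocyte 1.

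On the lower side, Pik3c3, the catalytic subunit of the lipid kinase, was at 57.0 and 30.8 CPM in young and at 8.78 and 15.7 CPM in aged GV oocytes. The groups did not overlap, and the log2 ratio was -1.76. Oma1, a protease of the inner mitochondrial membrane that cleaves OPA1, was at 50.8 and 32.1 CPM in young and at 19.1 and 13.3 CPM in aged oocytes, again without overlap (log2 ratio -1.30, and -0.94 without GV young control oocyte 1). Rb1cc1 was at 107 and 137 CPM in young and at 38.1 and 75.3 CPM in aged oocytes. Its ratio on the log2 scale of -1.09 was -0.69 without GV aged control oocyte 1 and -0.91 without GV young control oocyte 2-2. Fundc1, a mitophagy receptor, rested on a single oocyte. It was at 0.258 and 53.8 CPM in young and at 3.51 and 2.95 CPM in aged oocytes, and its log2 ratio of -2.73 turned to 1.75 without GV young control oocyte 2-2 and was -3.70 without oocyte 1.

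Atg5, Map1lc3b, Bnip3l and Mff, the most abundant members, overlapped between the age groups at the GV stage. Atg5 was at 320.2 and 372 CPM in young and at 359 and 287 CPM in aged oocytes (log2 ratio -0.10). Map1lc3b was at 272 and 188 CPM in young and at 192 and 293 CPM in aged oocytes (log2 ratio 0.07). Bnip3l, a receptor that ties mitochondria to ATG8 proteins, was at 87.7 and 141 CPM in young and at 229 and 122 CPM in aged oocytes (log2 ratio 0.61). Mff was at 149 and 224 CPM in young and at 55.9 and 152 CPM in aged oocytes (log2 ratio -0.84). Of the 5 initiation genes, 3 were past 2-fold upward (Ulk1, Ulk2 and Atg13) and 1 downward (Rb1cc1), but Ulk2 and Atg13 stayed under 10 CPM.

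**Figure D2:**
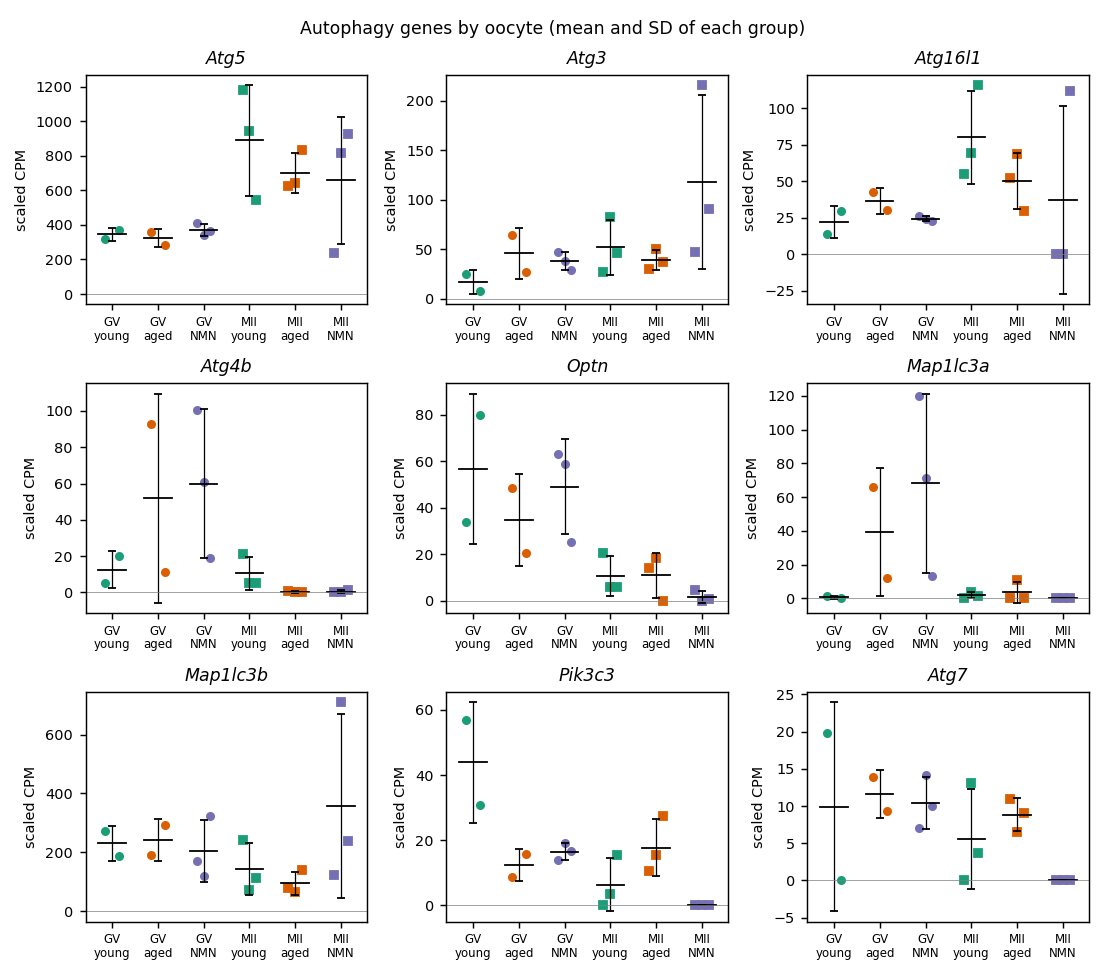
Scaled CPM of 9 autophagy genes in each oocyte, with circles for GV and squares for MII oocytes, horizontal lines for group means and bars for the SD between 2 or 3 oocytes. Map1lc3a and Atg4b are high in aged GV oocytes only in part of each group, Atg5 is higher in most MII than in GV oocytes, and Pik3c3 and Atg7 are at 0 in all 3 MII NMN oocytes.

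Age in MII oocytes gave mostly lower values in the aged group. Oma1, the fission receptor Mff, the mitophagy receptor Bnip3 and the ATG8 protease Atg4b were lower in all 3 aged than in all 3 young oocytes. These 4 are 11.8% of the 34, against 5.39% of all kept genes lower by 2-fold without overlap, while 0 of 34 were higher in that way against 1.76%. In group means 6 of 34 genes were at least 2-fold lower, 17.6% against 22.6% of all kept genes, and 1 was at least 2-fold higher, 2.94% against 8.45%. The median log2 ratio was -0.56 for the 34 genes and -0.27 for all kept genes. Within batch 1 it was -0.08, and within batch 2, with 1 oocyte a group, it was -1.18. With size factors from DESeq2 the counts were 6 lower and 2 higher. The lower genes numbered 11 without MII young control oocyte 1, and 10 without MII young control oocyte 2 or MII aged control oocyte 2. The higher genes numbered 0 without MII young control oocyte 1, 4 without oocyte 2, and 2 without MII young control oocyte 2-1, MII aged control oocyte 1 or oocyte 2-1.

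Oma1 was at 53.8, 126 and 102 CPM in young and at 23.3, 45.1 and 26.6 CPM in aged MII oocytes, 2.96-fold lower in scaled means (log2 ratio -1.54). It was thus lower with age at both stages, though the GV and MII comparisons rest on different oocytes of unknown animals and the difference between them was not tested. Mff, which recruits the fission dynamin, was at 164, 275 and 868 CPM in young and at 104, 100.2 and 118 CPM in aged oocytes. The log2 ratio of -2.01 was -1.02 without MII young control oocyte 2-1, the oocyte with 868 CPM. Cumulus and granulosa markers summed to 169, 36.0 and 297 CPM in the MII young oocytes, with 5, 8 and 9 of 14 detected, and to 89.4, 21.5 and 18.2 CPM in the aged ones, with 7, 4 and 3. The oocyte with most of them was again 2-1, and their part in the results for Mff, Becn1 and the other genes highest there was not tested. Bnip3 was at 53.8, 25.7 and 96.3 CPM in young and at 22.7, 24.6 and 10.5 CPM in aged oocytes (log2 ratio -1.56).

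Atg4b was at 21.2, 5.30 and 5.18 CPM in young and at 1.06, 0 and 0 CPM in aged MII oocytes. The aged group held 6 counts, 0.564 unscaled CPM with a Poisson interval of 0.207 to 1.23. The log2 ratio was -3.09, and -2.21 without MII young control oocyte 1. Becn1, a subunit of the lipid kinase complex, and Gabarapl2, an ATG8 protein, also passed 2-fold but with overlap. Becn1 was at 28.5, 25.4 and 143 CPM in young and at 23.3, 32.8 and 5.46 CPM in aged oocytes, and its log2 ratio of -1.63 was -0.38 without MII young control oocyte 2-1. Gabarapl2 was at 66.6, 23.2 and 15.1 CPM in young and at 3.53, 14.3 and 19.3 CPM in aged oocytes, and its log2 ratio of -1.43 was -0.59 without MII young control oocyte 1.

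Pik3c3 was the single member past 2-fold upward with age at MII, the opposite of its order in GV oocytes. It was at 0, 3.58 and 15.5 CPM in young and at 10.4, 15.5 and 27.3 CPM in aged MII oocytes, with overlap. Its log2 ratio of 1.35 was under 1 without MII young control oocyte 1 (0.83) or MII aged control oocyte 2-1 (0.92), and was 2.75 without MII young control oocyte 2-1. The difference between the stages was not tested. Among the remaining members, Dnm1l, the dynamin that cuts mitochondria, was at 165, 178 and 135 CPM in young and at 329, 137 and 148 CPM in aged MII oocytes (log2 ratio 0.36). Mfn1 was at 0, 31.6 and 28.4 CPM in young and at 35.6, 51.9 and 28.0 CPM in aged oocytes (log2 ratio 0.91). Neither separated the groups.

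**Figure D3:**
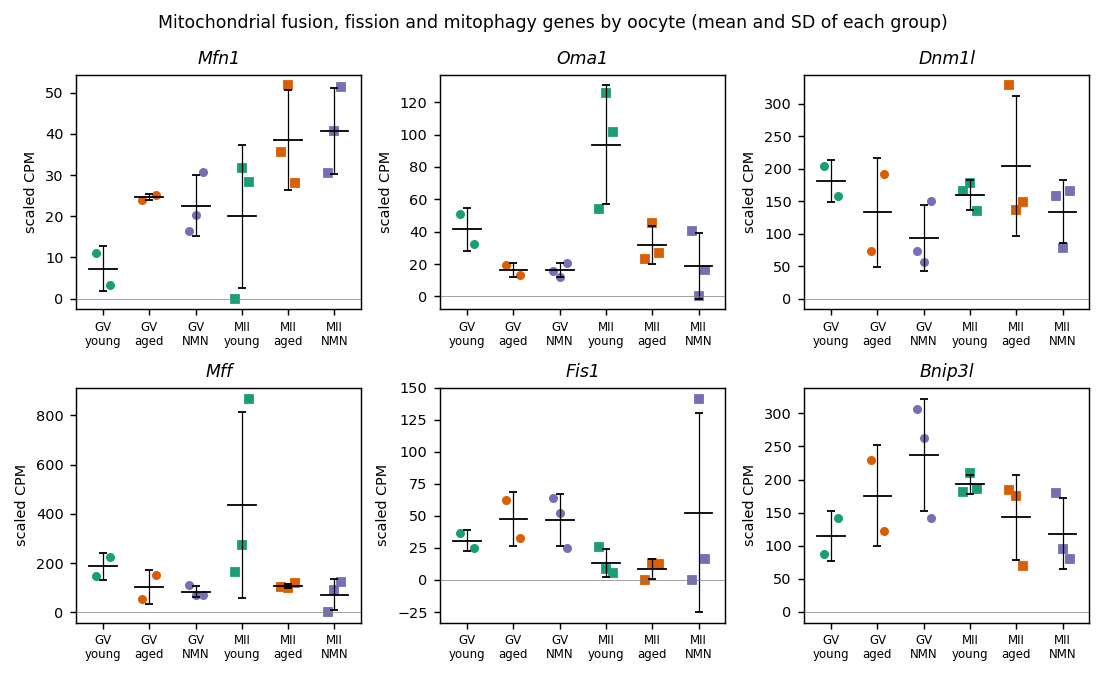
Scaled CPM of 6 genes of mitochondrial fusion, fission and mitophagy in each oocyte, with circles for GV and squares for MII oocytes, horizontal lines for group means and bars for the SD between oocytes. Oma1 is lower in both aged control groups than in the young group of the same stage, and the high MII young mean of Mff rests on 1 oocyte at 868 CPM.

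NMN in GV oocytes was compared with untreated oocytes of the same age. Few of the genes differed, and Sqstm1 and Ulk1, both higher in aged than in young GV oocytes, were the ones lower in all 3 treated than in both untreated aged oocytes by 2-fold or more. They are 5.88% of the 34, against 5.39% of all kept genes, and 0 of 34 were higher by 2-fold without overlap, against 2.61%. These values share the aged control oocytes with the comparison of age, so the 2 comparisons are not independent. At least 2-fold higher were 2 of 34 genes, 5.88% against 8.53% of all kept genes, and 3 were at least 2-fold lower, 8.82% against 12.3%. With library totals in place of scaling factors the counts were 1 and 3. Over the genes, the median log2 ratio was 0.00 for the 34 genes and 0.01 for all genes. Without GV aged control oocyte 1 the count of higher genes was 7, without GV aged NMN oocyte 1 it was 0, and without oocyte 2-1 it was 4. Without GV aged NMN oocyte 2 the count of lower genes was 6.

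Sqstm1 was at 6.18, 11.7 and 2.31 CPM in treated GV oocytes, under the 13.0 and 19.9 CPM of the untreated ones. The log2 ratio of -1.18 was -0.86 without GV aged control oocyte 2-1 and -0.81 without GV aged NMN oocyte 2-1. Ulk1 was at 3.21, 3.53 and 4.62 CPM in treated oocytes, under 13.7 and 6.89 CPM (log2 ratio -1.24, and -0.72 without GV aged control oocyte 1). In the young GV oocytes these genes were at 0 to 1.03 CPM, under every treated oocyte. Wipi2, which binds the lipid mark on the forming autophagosome, was at 32.7, 10.1 and 5.01 CPM in treated and at 13.2 and 1.48 CPM in untreated oocytes. Its ratio on the log2 scale of 1.02 was 0.04 without GV aged NMN oocyte 1, 0.26 without GV aged control oocyte 2-1 and 2.77 without GV aged control oocyte 1, so it rested on single oocytes. The other 2 genes past 2-fold, Atg9a upward and Ulk2 downward, were under 10 CPM in both groups.

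Atg16l1, the partner that places the ATG5 and ATG12 conjugate on membranes, was lower in all 3 treated GV oocytes by less than 2-fold, at 26.1, 24.2 and 23.1 CPM against 42.9 and 30.0 CPM (log2 ratio -0.56). Pik3c3 was at 13.97, 19.0 and 16.6 CPM in treated oocytes, overlapping the untreated ones (log2 ratio 0.40). Oma1 was at 15.8, 12.2 and 20.8 CPM (log2 ratio 0.01). For both, the treated oocytes stayed below the 2 young GV oocytes. Bnip3l was at 307, 263 and 142 CPM in treated oocytes (log2 ratio 0.43), and its 2 highest values were again from batch 1.

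NMN in MII oocytes was compared in the same way, and here Pik3c3 and the conjugation enzyme Atg7 had no count in any of the 3 treated oocytes. Both had counts in all 3 aged controls. Atg7 did not reach 10 CPM in the aged controls on average and is named after its values were seen. In group means 5 of 34 genes were at least 2-fold higher, 14.7% against 14.7% of all kept genes, and 5 were at least 2-fold lower, 14.7% against 33.1%. Past 2-fold without overlap were 2 lower, 5.88% against 11.3%, and 0 higher, against 1.31%. The median log2 ratio was -0.05 for the 34 genes, -0.18 for the 32 of them that passed the filter, and -0.33 for all kept genes. With library totals in place of scaling factors, 3 genes were higher and 8 lower, and the medians were -0.38 for the 34 and -0.64 for all genes. Without the 2 MII NMN oocytes richest in mitochondrially encoded counts, an alternative chosen after the data were seen, 4 were higher and 7 lower. Without MII NMN oocyte 2 the count of higher genes was 2, and without oocyte 2-1 the count of lower genes was 8.

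Pik3c3 was at 10.4, 15.5 and 27.3 CPM in the MII aged controls. The 0 counts of the treated group compare with a floor of 3 counts over the group of 0.335 scaled CPM, which makes the gene at least 52.9-fold lower. Atg7, the E1-like enzyme that activates both ATG12 and ATG8 proteins, was at 10.9, 6.51 and 9.09 CPM in aged controls and at least 26.4-fold lower with NMN by the same floor. Both were at 0 also in treated oocyte 2-1, whose mitochondrial share was 6.18%. In that oocyte 22 of the 34 genes were detected, and 60.5% of all kept genes. Pik3c3 also had no count in the untreated MII young control oocyte 1. The part of mitochondrial share or of detection in these results was not tested.

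Optn, a receptor that brings ubiquitin-tagged mitochondria to LC3, was at 4.75, 0 and 0.626 CPM in treated and at 14.1, 18.5 and 0 CPM in untreated aged MII oocytes. Its log2 ratio of -2.09 was -3.18 without MII NMN oocyte 1. Within batch 2 the order was turned, at 0.70, with 1 oocyte a group. Ulk1 was at 8.31, 0 and 9.39 CPM in treated and at 26.1, 30.3 and 3.27 CPM in untreated oocytes (log2 ratio -1.60, and 1.28 within batch 2). Both groups overlapped for these genes.

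None of the genes at least 2-fold higher at MII with NMN separated the groups. Map1lc3b was at 123, 711 and 237 CPM in treated and at 79.5, 66.4 and 139 CPM in untreated oocytes. The log2 ratio of 1.90 was 0.91 without MII NMN oocyte 2. Atg3 was at 46.7, 216 and 90.7 CPM in treated and at 29.6, 49.9 and 36.7 CPM in untreated oocytes, and its log2 ratio of 1.58 was 0.81 without MII NMN oocyte 2. Fis1, a fission protein of the outer membrane, was at 0, 142 and 16.3 CPM in treated and at 0, 13.0 and 12.7 CPM in untreated oocytes, and its log2 ratio of 2.48 was -0.07 without MII NMN oocyte 2. The highest treated value of these 3 genes came from the same oocyte, in which 33.2% of counts were mitochondrially encoded. The same oocyte held 29.8 CPM of erythroid markers, from the globin genes Hba-a1 and Hba-a2, against 0 to 0.210 CPM in the other 15 oocytes, with the other 3 of 5 markers at 0 throughout. The part of either in these results was not tested. Becn1 was at 100.1, 21.8 and 15.6 CPM in treated oocytes (log2 ratio 1.12), and without MII NMN oocyte 1 its log2 ratio was -0.13, while without MII aged control oocyte 2-1 it was 0.69. Without both NMN oocytes richest in mitochondrial counts the log2 ratios were 0.85 for Fis1, 1.31 for Map1lc3b and -0.37 for Becn1. Atg14, the subunit that directs the lipid kinase to autophagy, was higher in all 3 treated oocytes by less than 2-fold, at 37.6, 36.7 and 42.9 CPM against 14.6, 35.6 and 22.6 CPM (log2 ratio 0.66).

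**Figure D4:**
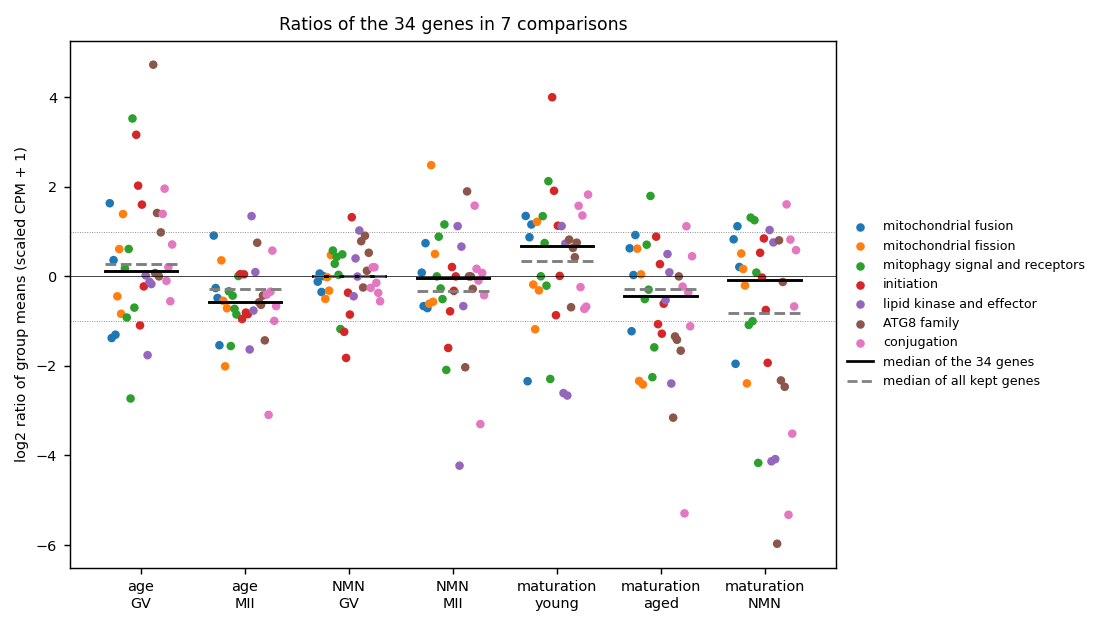
Log2 ratio of group means (scaled CPM + 1) for each of the 34 genes in the 7 comparisons, coloured by role, with the median of the 34 genes as a solid line, the median of all kept genes as a dashed line and 2-fold as dotted lines. The solid line lies above the dashed one for NMN at MII and for maturation of young and NMN oocytes, and below it for age at both stages and for maturation of aged controls.

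Maturation, MII against GV oocytes, was compared within each condition. In young controls the conjugation genes Atg5, Atg3 and Atg16l1 and the protease Oma1 were higher in all 3 MII than in both GV oocytes, and Pik3c3 and Optn were lower in all 3. At least 2-fold higher were 12 of 34 genes, 35.3% against 36.3% of all kept genes, and 5 were at least 2-fold lower, 14.7% against 25.8%. Past 2-fold without overlap were 4 upward, 11.8% against 16.6%, and 2 downward, 5.88% against 15.4%. Over the genes, the median log2 ratio was 0.68 for the 34 genes and 0.35 for all kept genes. With size factors from DESeq2 the split was 8 higher and 9 lower, and the medians were 0.39 for the 34 and 0.10 for all genes, so the balance of higher and lower genes depended on the scaling. Without MII young control oocyte 2-1 the median of the 34 was 0.14.

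Atg5, which is joined to ATG12 to form the enzyme that completes ATG8 attachment, was at 1181, 942 and 547 CPM in young MII oocytes against 320.2 and 372 CPM in young GV oocytes. The pooled counts gave 943 unscaled CPM at MII with a Poisson interval of 928 to 959, and 338 at GV with an interval of 325 to 351. The log2 ratio of scaled means was 1.36. Atg16l1 was at 54.7, 69.5 and 116 CPM at MII and at 14.2 and 29.5 CPM at GV (log2 ratio 1.83, and 2.42 without GV young control oocyte 2-2). Atg3 was at 26.8, 82.0 and 46.4 CPM at MII, above the 25.3 and 8.10 CPM at GV (log2 ratio 1.58, and 2.53 without GV young control oocyte 1). The remaining conjugation genes did not follow, and Atg12, the partner of Atg5, was at 32.7, 52.7 and 210.1 CPM at MII against 172 and 144 CPM at GV (log2 ratio -0.68).

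Ulk1 was at 0, 29.0 and 28.6 CPM in young MII oocytes and at 0 and 0.523 CPM in young GV oocytes, so that the first MII oocyte overlapped. The GV group held 2 counts, a ratio of unscaled CPM of 84.2 with a counting interval of 23.1 to 699, and the log2 ratio of scaled means was 4.00. Oma1 was at 53.8, 126 and 102 CPM at MII against 50.8 and 32.1 CPM at GV. Its ratio on the log2 scale of 1.16 was 0.87 without GV young control oocyte 2-2, 0.89 without MII young control oocyte 2 and 0.80 with DESeq2 size factors. Further genes passed 2-fold with overlap. These were Mfn1 (log2 ratio 1.35, and 0.80 without GV young control oocyte 2-2, 0.88 without MII young control oocyte 2 and 2.26 without GV young control oocyte 1) and Bnip3 (1.34, and 0.38 without GV young control oocyte 1, 5.90 without oocyte 2-2 and 0.80 without MII young control oocyte 2-1). Mff and Becn1 had log2 ratios of 1.22 and 1.12, which were 0.23 and -0.13 without MII young control oocyte 2-1 and 0.95 and 0.88 without GV young control oocyte 1. Oocyte 2-1 of MII young controls is the one with 297 CPM of cumulus and granulosa markers, against 27.6 and 61.1 CPM in the GV young oocytes, and their part was not tested.

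Pik3c3 was lower at MII in young controls, at 0, 3.58 and 15.5 CPM against 57.0 and 30.8 CPM (log2 ratio -2.61, and -4.01 without MII young control oocyte 2-1). Optn was also lower without overlap and was at 20.7, 5.92 and 5.80 CPM at MII and at 34.03 and 79.7 CPM at GV (log2 ratio -2.29). It was -1.57 without GV young control oocyte 2-2 and -3.08 without MII young control oocyte 1. Fis1 was at 25.6, 8.26 and 5.18 CPM at MII and at 36.6 and 24.8 CPM at GV, with overlap. Its log2 ratio of -1.18 was -2.04 without MII young control oocyte 1, and it was within 2-fold without GV young control oocyte 1 (-0.88), MII young control oocyte 2 (-0.95) or oocyte 2-1 (-0.82).

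In aged controls maturation gave more lower genes among the 34. The ATG8 genes Map1lc3a, Map1lc3b and Gabarapl2, the fission gene Fis1, the receptors Sqstm1 and Optn, and the protease Atg4b were lower in all 3 MII than in both GV oocytes. At least 2-fold lower were 14 of 34 genes, 41.2% against 35.9% of all kept genes, and 2 were at least 2-fold higher, 5.88% against 16.9%. Past 2-fold without overlap were 9 downward, 26.5% against 25.9%, and 1 upward, 2.94% against 8.33%. The median log2 ratio was -0.43 for the 34 genes and -0.29 for all kept genes. Without GV aged control oocyte 1, 10 were lower and 5 higher.

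Atg4b (chromosome 1, 93751500 to 93790610, plus strand) was at 1.06, 0 and 0 CPM at MII against 92.7 and 11.3 CPM at GV. The log2 ratio was -5.29, and it was -3.19 without GV aged control oocyte 1 and -6.11 without oocyte 2-1. Map1lc3a was at 0, 10.5 and 0 CPM at MII against 66.0 and 12.3 CPM at GV (log2 ratio -3.16). It was -1.56 without GV aged control oocyte 1, -3.89 without oocyte 2-1 and -5.33 without MII aged control oocyte 2. Map1lc3b was at 79.5, 66.4 and 139 CPM at MII against 192 and 293 CPM at GV (log2 ratio -1.34), and Gabarapl2 was at 3.53, 14.3 and 19.3 CPM against 37.4 and 45.0 CPM (log2 ratio -1.66). These ATG8 genes did not overlap between the stages. The high GV values of Atg4b and Map1lc3a came from GV aged control oocyte 1, which held much C1qb, and the part of this was not tested.

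Fis1 was at 0, 13.0 and 12.7 CPM in aged MII oocytes against 62.4 and 32.5 CPM in aged GV oocytes (log2 ratio -2.34). Sqstm1 was at 0, 0 and 8.00 CPM at MII against 13.0 and 19.9 CPM at GV (log2 ratio -2.25, and -4.13 without MII aged control oocyte 2-1). Optn was at 14.1, 18.5 and 0 CPM at MII against 48.7 and 20.7 CPM at GV, and its log2 ratio of -1.59 was -0.87 without GV aged control oocyte 1. Atg12 was at 79.8, 40.8 and 26.2 CPM at MII against 70.3 and 144 CPM at GV, and its log2 ratio of -1.11 was -0.51 without GV aged control oocyte 2-1 and -0.82 without MII aged control oocyte 2-1. The higher genes were Atg5 and Fundc1. Atg5 was at 627, 643 and 836 CPM at MII, above the 359 and 287 CPM at GV, and its log2 ratio of 1.12 was 0.97 without GV aged control oocyte 2-1 or MII aged control oocyte 2-1. Fundc1 was at 3.17, 21.5 and 16.4 CPM at MII against 3.51 and 2.95 CPM at GV (log2 ratio 1.80). Oma1 and Mfn1 were also higher in all 3 aged MII oocytes, by less than 2-fold (log2 ratios 0.92 and 0.63).

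In NMN-treated oocytes maturation left 13 of 34 genes at least 2-fold lower, 38.2% against 46.7% of all kept genes, and 5 at least 2-fold higher, 14.7% against 16.9%. Over the genes, the median log2 ratio was -0.08 for the 34 genes, 0.03 for the 32 of them that passed the filter, and -0.82 for all kept genes. With library totals in place of scaling factors, 1 gene was higher and 14 lower, and the median was -0.22 for the 34 and -0.90 for all genes. Without the 2 MII NMN oocytes richest in mitochondrial counts the median of the 34 was -0.60. Map1lc3a, Atg4b, Optn, Pik3c3, Wipi2, Atg7 and Mief1 were lower in all 3 MII than in all 3 GV oocytes. These 7 are 20.6% of the 34, against 26.8% of all kept genes lower by 2-fold without overlap, and 0 of 34 were higher in that way, against 3.34%. Without GV aged NMN oocyte 1, 3 genes were higher, and without GV aged NMN oocyte 2-1, 8 were.

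Map1lc3a was at 0, 0.311 and 0 CPM in treated MII oocytes against 119.7, 71.5 and 13.5 CPM in treated GV oocytes. The MII group held 1 count and the GV group 821, a ratio of unscaled CPM of 827 with a counting interval of 148 to 32691, and the log2 ratio of scaled means was -5.97. It was -5.30 without GV aged NMN oocyte 1. Atg4b was at 0, 0 and 1.56 CPM at MII against 101, 60.6 and 18.9 CPM at GV (log2 ratio -5.33, and -5.93 without MII NMN oocyte 2-1). Optn was at 4.75, 0 and 0.626 CPM at MII against 63.0, 59.0 and 25.4 CPM at GV (log2 ratio -4.17, and -5.25 without MII NMN oocyte 1). All 3 were thus lower at MII both in aged control and in treated oocytes. Among the treated GV oocytes, each was highest in oocytes 1 and 2, both with much C1qb, whose part was not tested. Over all oocytes, Optn was highest in GV young control oocyte 2-2, at 79.7 CPM, where immune markers summed to 8.88 CPM.

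Pik3c3, Wipi2 and Atg7 had no count at MII and were at least 49.2-fold, 47.5-fold and 31.0-fold lower than in treated GV oocytes. Pik3c3 was at 13.97, 19.0 and 16.6 CPM in treated GV oocytes, Wipi2 at 32.7, 10.1 and 5.01 CPM, and Atg7 at 7.10, 14.1 and 10.01 CPM. All 3 act before or in ATG8 attachment. So do Becn1 and Atg3, whose log2 ratios here were 1.03 and 1.61, resting on single oocytes as given below. Of all kept genes, 48.2, 42.4 and 60.5% were detected in the treated MII oocytes, against 91.8, 93.7 and 75.4% in the treated GV ones. The part of this in the result was not tested. Wipi2 was also at 0 to 1.75 CPM in every control MII oocyte. The log2 ratio of -4.08 was -3.09 without GV aged NMN oocyte 1. Mief1, an adaptor for the fission dynamin, was at 4.75, 0.311 and 0 CPM at MII against 8.93, 9.51 and 20.8 CPM at GV (log2 ratio -2.39, and -3.61 without MII NMN oocyte 1). Gabarapl2 was at 0, 0 and 30.0 CPM at MII against 101, 52.7 and 25.8 CPM at GV, with overlap (log2 ratio -2.47, -5.93 without MII NMN oocyte 2-1, and -1.87 without GV aged NMN oocyte 1). Bnip3l sat at the limit of 2-fold, with 179, 94.8 and 80.4 CPM at MII against 307, 263 and 142 CPM at GV. Its ratio on the log2 scale of -1.001 was -0.77 without GV aged NMN oocyte 1, -0.92 without oocyte 2, -0.87 without MII NMN oocyte 2 and -0.79 without oocyte 2-1.

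The higher genes at MII with NMN rested on single oocytes. Atg3 was at 46.7, 216 and 90.7 CPM against 46.9, 38.1 and 28.9 CPM, and its log2 ratio of 1.61 was 0.84 without MII NMN oocyte 2. Bnip3 was at 0, 93.2 and 16.3 CPM against 17.2, 17.4 and 7.70 CPM, and its log2 ratio of 1.31 was -0.72 without MII NMN oocyte 2. Opa1, the fusion protein of the inner membrane, was at 28.9, 11.2 and 5.94 CPM against 4.35, 12.5 and 2.70 CPM. Its log2 ratio of 1.12 was 0.35 without MII NMN oocyte 1, 0.79 without GV NMN oocyte 2-1, 0.93 without GV NMN oocyte 1 and 1.85 without GV NMN oocyte 2. Becn1 was at 100.1, 21.8 and 15.6 CPM against 19.2, 13.6 and 32.7 CPM. Its value of 1.03 was -0.21 without MII NMN oocyte 1, 0.80 without GV NMN oocyte 2 and 0.95 without GV NMN oocyte 1. Atg5 was higher in 2 of the 3, at 236, 814 and 924 CPM against 411, 341 and 363 CPM (log2 ratio 0.82), while in both control conditions all 3 MII oocytes were higher.

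The summed level of the 5 ATG8 genes ranged from 50.1 to 443.1 TPM over the oocytes, and the share of Map1lc3b in it from 33.3 to 100%. Map1lc3b held 98.8 and 85.3% of it in GV young control oocytes, 57.4 and 87.3% in GV aged control, and 33.3, 38.0 and 89.96% in GV aged NMN oocytes. Map1lc3a held 28.7% in the first aged control and 38.6 and 38.3% in the first 2 NMN oocytes, the 3 GV oocytes of batch 1 with much C1qb, and 0 to 5.30% in the other GV oocytes. At MII, Map1lc3b held 72.8, 50.6 and 71.0% in young controls, 94.5, 52.3 and 89.6% in aged controls and 100, 99.8 and 91.4% with NMN. Gabarapl2 made up most of the rest in MII young controls, at 27.1, 41.6 and 23.1%. Gabarap and Gabarapl1 were minor in each oocyte, at most at 6.52 and 1.04 CPM.

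**Figure D5:**
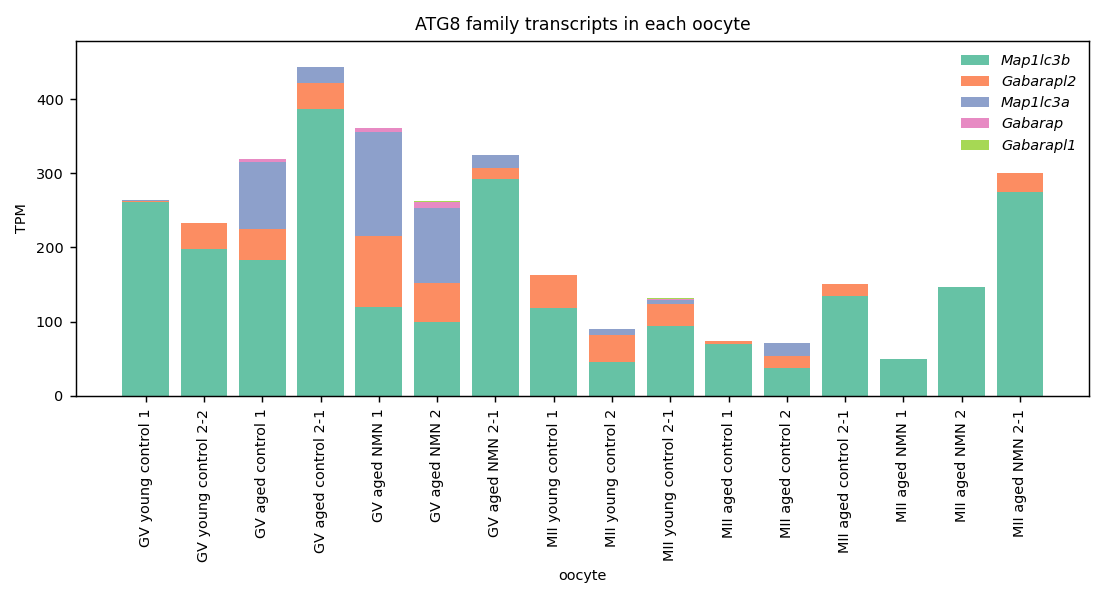
TPM of the 5 ATG8 family genes stacked for each of the 16 oocytes. Map1lc3b is the main segment in most bars, Map1lc3a is a large segment in 3 aged GV oocytes of batch 1, and the bars of MII NMN oocytes 1 and 2 hold almost nothing else than Map1lc3b.

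The members not yet given were low or within 2-fold in each comparison. Mfn2 reached 17.2 CPM in GV young control oocyte 2-2 and was at 0 to 8.16 CPM elsewhere. Atg13 was at 0 to 3.20 CPM, Atg9a at 0 to 5.72 CPM, Ulk2 at 0 to 8.07 CPM and Pink1 at 0 to 2.98 CPM, so that most of their ratios lay near the floor. Dnm1l, detected in every oocyte at 56.0 to 329 CPM, had log2 ratios between -0.61 and 0.62 in the 7 comparisons. Atg14 was likewise detected in every oocyte, at 13.7 to 62.2 CPM, with log2 ratios between -0.76 and 0.76. 

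Other genes of these pathways, 94 in 6 lists chosen with earlier results of these data known, were described for context. Of them 81 passed the filter on low counts. The shares below are of all 94, while the shares they are set against hold only genes that passed. For age in GV oocytes 31 of the 94 were higher by 2-fold and 9 lower, 33.0 and 9.57% against 31.2 and 12.2% of all kept genes. For age in MII oocytes they were 4 and 28, 4.26 and 29.8% against 8.45 and 22.6%. With NMN they were 5 and 13 in GV oocytes, 5.32 and 13.8% against 8.53 and 12.3%, and 11 and 30 in MII oocytes, 11.7 and 31.9% against 14.7 and 33.1%. For maturation they were 41 and 18 in young controls, 43.6 and 19.1% against 36.3 and 25.8%. In aged controls they were 13 and 33, 13.8 and 35.1% against 16.9 and 35.9%, and with NMN 10 and 40, 10.6 and 42.6% against 16.9 and 46.7%. Their median log2 ratios were 0.49 for age in GV oocytes against 0.13 for the 34 genes, and -0.30 against -0.56 for age in MII oocytes.

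Among these other genes, Vamp8, a SNARE protein that fuses autophagosomes with lysosomes, was at 343.6 and 439.5 CPM in aged GV oocytes and at 5.64, 5.51 and 1.09 CPM in aged MII oocytes (log2 ratio -6.27). In young controls it was at 555 and 214 CPM at GV and at 18.44, 9.04 and 6.21 CPM at MII (log2 ratio -4.98, and -4.14 without GV young control oocyte 1). Tax1bp1, a cargo receptor, was the converse in aged controls, at 452 and 562 CPM at GV and at 1126, 1631 and 1432 CPM at MII (log2 ratio 1.46). The stages overlapped in young controls, at 789 and 522 CPM at GV and 527, 1165 and 417 CPM at MII. They also overlapped with NMN, at 431, 470 and 615 CPM at GV and 144, 116 and 1477 CPM at MII. Nrbf2, which binds the lipid kinase complex, was at 6.19 and 0 CPM in young GV and at 124.5, 79.8 and 38.1 CPM in young MII oocytes. Its log2 ratio of 4.32 was 6.35 without GV young control oocyte 1 and 3.51 without oocyte 2-2. It was at 25.6, 28.1 and 16.7 CPM in aged MII oocytes (log2 ratio for age -1.74). Mtor, the kinase that holds autophagy in check, was at 7.90 and 7.13 CPM in aged control GV and at 37.4, 18.5 and 34.9 CPM in aged control MII oocytes (log2 ratio 1.88). In young controls the stages overlapped, at 5.93 and 50.4 CPM at GV and 0, 16.5 and 19.7 CPM at MII. With NMN it was at 0.687, 6.25 and 6.93 CPM at GV and at 0, 0 and 4.07 CPM at MII.

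Pik3r4, the regulatory partner of Pik3c3, was at 0, 0 and 0.939 CPM in MII NMN oocytes against 16.6, 41.1 and 21.1 CPM in aged controls. That is 3 counts against 316, a ratio of unscaled CPM of 111 with a counting interval of 37.5 to 539. Atg101, which stabilises ATG13 in the ULK1 complex, had no count in MII NMN oocytes against 13.2, 21.5 and 13.8 CPM in aged controls, at least 48.3-fold lower. As these are the oocytes with the fewest detected genes and, in 2 of 3, the largest mitochondrial shares, the part of these in the result was not tested. With age in GV oocytes, Bcl2l13, a mitophagy receptor, was lower without overlap, at 11.9 and 13.0 CPM against 30.2 and 48.1 CPM (log2 ratio -1.57), and in aged MII oocytes it was at 4.41, 8.52 and 14.2 CPM against 22.0, 20.1 and 37.7 CPM (log2 ratio -1.46). The log2 ratios of these other genes moved by over 1.5 times with 1 oocyte left out, an alternative chosen after the data were seen, only where such values are given.

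Of the 62 values of members past 2-fold whose higher group had a mean of 10 CPM or more, over the 7 comparisons, 33 stayed past 2-fold in the same direction whichever single oocyte was left out. These were 5 of 10 for age in GV oocytes, 4 of 7 for age in MII, 0 of 3 for NMN in GV, 3 of 7 for NMN in MII, and 6 of 12, 7 of 10 and 8 of 13 for maturation in young control, aged control and NMN-treated oocytes.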

How the data were processed

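Gene tables of 18 libraries of 1 oocyte each were used. Per the file headers they give an expected count per gene, not normalised. TPM was likewise deposited, per the file headers, and corrects for effective length and library size. Cufflinks, TopHat2 2.1.1, Trim Galore 0.4.5 and FastQC 0.11.8 are named in the submitters' processing notes, as are mm10 and GRCm38. Which step made the tables is not given in the sources used here. Reads of near-identical gene copies may have been split between them. The files of GV young control 1 and 2-1 had the same values for all 47069 genes and stand for 1 oocyte. GV aged control 2-2 held 5009 counts and was left out. Libraries whose titles name no batch were called batch 1. The title of 1 MII NMN oocyte says batch 2 and no more. It was taken as oocyte 2 of batch 1 by the share of genes with a count whose expected count was fractional. This share was 29.0% in it, against 19.5 to 28.0% in the other batch 1 libraries except the merged one and 11.9 to 14.6% in batch 2. The merged young library was used as batch 1, but its share was 14.5%, so its batch is unclear.

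Expected counts were rounded and scaled to CPM with TMM factors (edgeR 4.0.16, R 4.3.3). The filter was filterByExpr by group with a minimum count of 10, which left 12161 genes. For each pair of groups, 1 CPM was added to both means and their log2 ratio taken. Folds are plain ratios of scaled means, and against a group at 0 they use 3 counts over that group. Intervals are exact Poisson intervals of pooled counts, or exact conditional binomial intervals of a ratio, at 95%. Symbols and positions came from GENCODE vM21. Members, roles and pathway lists were chosen with earlier results of these data known. Members were named where the higher group had 10 CPM or more and the difference was 2-fold, pathway genes if their oocytes also did not overlap, up to 3 per direction, and the text names a part of them. Alternatives were DESeq2 1.42.0 size factors, library totals, TPM, 5 CPM added, other filters, batches and oocytes left out. The calculation was tested on simulated data. Python 3.11.15 with pandas 2.3.3 and matplotlib 3.10.9 made tables and figures.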

Additional observations from a re-analysis of the deposited data

How the results depend on the processing

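No paired analysis was possible because no result comes from a test and oocytes of the same number are not known to share an animal. The median log2 ratio of the 34 genes moved by more than the spread between oocytes in 8 of 90 alternatives. Within batch 1 it was -0.084 for age in MII oocytes, and 0.63 for age in GV oocytes, where the young oocyte is the merged library of unclear batch. Within batch 2 it was -1.18 for age in MII oocytes. For NMN in GV oocytes it was -0.22 with library totals and 0.47 with the library of 5009 counts kept, which also gave 0.015 for maturation in aged controls. For maturation in young controls it was 0.21 with 5 CPM added, and 0.14 to 0.85 when single oocytes were left out, lowest without MII young control oocyte 2-1. Setting members without counts in a group to their bound moved a median by at most 0.06.

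Log2 ratios of named members turned in 24 of 806 alternatives. For age in GV oocytes, Fundc1 was 1.84 within batch 1, by the same library, and -3.70 to 1.75 with oocytes left out, and Atg4b was -0.76 within batch 2, -0.15 with the merged young library read as batch 2 (chosen after seeing the data) and -0.15 to 3.05 with oocytes left out. For age in MII oocytes, Becn1 was 0.055 within batch 1 and Gabarapl2 0.33 within batch 2. For NMN in MII oocytes within batch 2, Optn was 0.70 and Ulk1 1.28, or 0.39 and 0.41 with the oocyte titled batch 2 read as batch 2. Becn1 was -0.37 without the 2 oocytes of largest mitochondrial share and -0.13 to 1.61 with oocytes left out, and Fis1 was -0.070 to 3.06. For maturation in young controls, Becn1 was -0.13 to 1.504 with oocytes left out. For maturation with NMN, Opa1 was -0.028 and Becn1 -0.38 in TPM, -0.11 and -0.46 without the same 2 oocytes, and Becn1 -0.21 to 1.44 and Bnip3 -0.72 to 1.89 with oocytes left out. Within batch 2, Becn1 was -1.02, or -0.78 with the oocyte titled batch 2, and Gabarapl2 0.21.

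Counts of members past 2-fold moved by over 1.5 times in 54 of 180 alternatives. Higher members ranged from 6 to 15 for age in GV oocytes, 0 to 4 for age in MII, 0 to 7 for NMN in GV, 1 to 7 for NMN in MII, 8 to 17, 1 to 9 and 1 to 8 for maturation in young control, aged control and NMN-treated oocytes. Lower members ranged in the same order from 3 to 10, 6 to 19, 0 to 6, 4 to 8, 4 to 10, 9 to 14 and 8 to 15. Other scalings shifted the median of all genes by over 0.1 in several comparisons. It was 0.46 (library totals) for age in GV, -0.16 (DESeq2) for age in MII and -0.18 (library totals) for NMN in GV. For NMN in MII it was -0.64 (library totals) and -0.22 (DESeq2). For maturation it was 0.10 (DESeq2) and 0.46 (library totals) in young controls and -0.42 (DESeq2) in aged controls. Filters moved 1 of 28 shares of all genes by over 1.5 times, for lower genes with NMN in MII oocytes, from 33.1% to 21.7% when all genes with a count were kept. At 3 counts per library, levels under about 1 CPM could not be told from 0.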
